A study of Mus musculus with 12 samples.

Results

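Described here are 10 genes that mark smooth muscle cells, myofibroblasts and pericytes, measured by RNA sequencing (RNA-seq) in subcutaneous tumors of mouse lung cancer cells. The set was a list of named genes, *Acta2*, *Actg2*, *Tagln*, *Myh11*, *Cnn1*, *Myl9*, *Mylk*, *Lmod1*, *Pdgfrb* and *Rgs5*, of which all 10 were among the 15687 genes tested. The rule named the genes and set no threshold on a measured value. The first 8 encode parts of the contractile apparatus, and *Pdgfrb* and *Rgs5* are genes of pericytes.

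The tumors were allografts of mTC11 cells, a mouse lung cancer line. The control (CTL) group held 6 tumors from cells transduced with a scrambled short hairpin RNA (shRNA, "shControl", genotype label WT), and the *Filip1l*-knockdown group held 6 tumors from cells with an shRNA against *Filip1l* (genotype label Filip1l KD). All 12 tumors grew for 24 days in male C57BL6/J mice that were 8 weeks old at injection, from cells given under the skin in Matrigel. Both arms were lentiviral clones, the methods name a pair of *Filip1l* constructs without stating which one these tumors carried, and the knockdown was in the cancer cells only.

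Smooth muscle cells contract when myosin light chain kinase phosphorylates the regulatory light chain of myosin, which then pulls on filaments of smooth muscle actin. Fibroblasts activated in wounds and tumors, called myofibroblasts, take up part of the same program, with *Acta2* as their usual marker. Much of that program is switched on by serum response factor (SRF) with its myocardin-family partners at short promoter elements called CArG boxes, and transforming growth factor β (TGF-β) induces it in fibroblasts. Pericytes are the contractile cells that wrap capillaries, are recruited by platelet-derived growth factor (PDGF) from endothelium through the receptor PDGFRβ, and can give rise to or resemble the other contractile cells.

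Values were reads per gene divided by the size factor of each tumor, called normalized counts below. The tumors had 17834745 (CTL replicate 5) to 32419578 reads on listed genes, and 1 read was worth 0.865 to 1.49 normalized counts. *Filip1l* itself averaged 2311 ± 211 normalized counts under shControl and 1924 ± 165 under knockdown (SD, n = 6), and its log2 fold change was -0.26 ± 0.07 (SE, limma adjusted p = 0.00998). The tumors were labelled as biological replicates with no batch or date. In bulk tumor RNA, fewer cells of a type and less RNA per cell cannot be told apart, and neither can host cells and cancer cells that make the same transcript.

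*Acta2*, *Actg2*, *Tagln* and *Myl9* fell in the *Filip1l*-knockdown tumors, and *Mylk* rose. The lower genes were between 1.49-fold (*Tagln*) and 1.94-fold (*Actg2*) lower, while *Mylk* was 2.66-fold higher. *Myh11*, *Cnn1*, *Lmod1*, *Pdgfrb* and *Rgs5* did not pass the test. In all, 5 of the 10 genes were called at an adjusted p under 0.05 (limma), against 41.9 percent of all genes tested. The 4 lower genes stand beside 20.7 percent of all genes called lower, and the 1 higher gene beside 21.1 percent called higher. At an additional fold change of over 2, only *Mylk* was called among the 10, against 10.2 percent of all genes, of which 6.20 percent were called higher and 3.97 percent lower. The median log2 fold change was -0.42 over the 10 genes and -0.52 over the 8 contractile genes, against 0.01 over all genes tested.

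**Figure D1:**
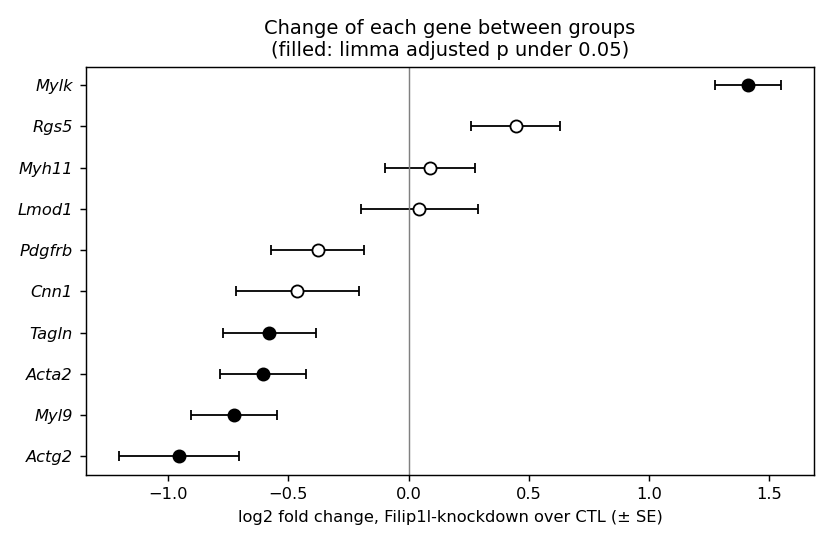
Log2 fold change (x axis, *Filip1l*-knockdown over CTL, points with SE bars) of each of the 10 genes, ordered by size, with filled points for a limma adjusted p under 0.05. *Mylk* stands alone on the right at 1.41, and *Actg2*, *Myl9*, *Acta2* and *Tagln* are the filled points on the left, from -0.96 to -0.58.

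Promoter letters are shown for the genes in which a CArG box was found, since SRF is a known regulator of much of the contractile program. RefSeq promoter windows (GRCm38.p6) of 250 bases before and 50 after the start site were searched on both strands. This was done for 6 of the 10 genes, *Acta2*, *Cnn1*, *Lmod1*, *Myl9*, *Mylk* and *Rgs5*. An exact CArG box has 10 letters, an A- and T-only core of 6 between CC and GG, and a CArG-like box may have 1 G or C in the core. In the lines below each run is 30 bases, written 5′ to 3′ on the strand of the gene, with the box in capitals.
*Myl9*, exact box 161 bases before the start, chr2:156775293-156775322 (+): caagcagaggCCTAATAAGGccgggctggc
*Myl9*, CArG-like box 99 bases before the start, chr2:156775355-156775384 (+): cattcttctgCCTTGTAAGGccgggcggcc
*Acta2*, CArG-like box 84 bases before the start, chr19:34255438-34255467 (-): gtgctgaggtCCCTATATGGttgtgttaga
*Acta2*, CArG-like box 34 bases before the start, chr19:34255388-34255417 (-): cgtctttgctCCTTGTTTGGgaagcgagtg

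*Myl9* was the 1 gene of the 6 with an exact box, which 1.63 percent of 32851 promoter windows held, and 9.98 percent held a box of either kind. *Acta2* and *Myl9* were the 2 genes of the 6 with any box, and none was found for *Mylk*, *Cnn1*, *Lmod1* or *Rgs5*. The *Mylk* window lay at the start of its long coding transcript (start site chr16:34784950). The start of its short coding transcript (chr16:34994807) was not searched. No window was searched for *Actg2* and *Tagln*, which also fell, or for *Myh11* and *Pdgfrb*. Whether the boxes go with the direction of change was not tested. Both *Acta2* boxes lie inside the first exon of the longer coding *Acta2* transcript as annotated by GENCODE (chr19:34255290-34255590), which starts upstream of the RefSeq site. The letters TGGGAA, the core recognized by the Notch effector RBPJ, were found in 25.6 percent of windows and in the *Acta2* window among the 6, where they overlap the second CArG-like box. A match is a run of letters and not a measured binding site.

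The thin filament genes come first. *Acta2* (ENSMUSG00000035783, chr19:34241090-34255590) encodes α smooth muscle actin, the most abundant actin of vascular smooth muscle. Among CTL tumors it ranged from 3176 to 6484 normalized counts with a median of 4312, and among knockdown tumors from 1708 to 3605 with a median of 3116. All 6 knockdown tumors lay below the CTL median and 4 of them below the lowest CTL tumor, with an overlap of the groups left by CTL replicate 5. The mean fell from 4491 ± 1105 to 2959 ± 651 (SD, n = 6), a log2 fold change of -0.61 ± 0.18 (SE, limma adjusted p = 0.0145, exact permutation p = 0.00649). *Acta2* lies on chromosome 19, where the median log2 difference between the groups was -0.35 over 458 genes whose mean reached 50 normalized counts. With the median of each chromosome removed in each tumor, its log2 fold change was -0.25 with a limma adjusted p of 0.298, so the call did not hold on that scale.

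*Actg2* (chr6:83512905-83536265) encodes γ smooth muscle actin, the actin of gut and other visceral smooth muscle, and it had the lowest log2 fold change of the 10. It ranged from 535 to 1088 normalized counts in CTL tumors (median 648) and from 203 to 626 in knockdown tumors (median 410). In 5 of 6 knockdown tumors it was below every CTL tumor, and knockdown replicate 3 was the exception. The mean fell from 745 ± 217 to 397 ± 152 (SD, n = 6), a log2 fold change of -0.96 ± 0.25 (SE, limma adjusted p = 0.00690, exact permutation p = 0.00649). *Lmod1* (chr1:135324807-135368065), which encodes the leiomodin that starts new actin filaments in smooth muscle, was the least abundant of the 10, with 34.9 to 79.5 normalized counts in CTL tumors (median 63.5) and 42.4 to 96.0 in knockdown tumors (median 54.9). Its groups lay on top of each other, with a log2 fold change of 0.05 ± 0.24 (SE, limma adjusted p = 0.903).

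*Tagln* (chr9:45929619-45936058) encodes transgelin (SM22α), an actin-binding protein that is an early marker of smooth muscle and is also induced in myofibroblasts. CTL tumors held 865 to 1689 normalized counts (median 1266) and knockdown tumors 461 to 1094 (median 931). All 6 knockdown tumors were below the CTL median, and 5 of 6 CTL tumors were above every knockdown tumor. The log2 fold change was -0.58 ± 0.19 (SE, limma adjusted p = 0.0260, exact permutation p = 0.013). The call was lost without CTL replicate 2 (limma adjusted p = 0.0533) or CTL replicate 3 (0.0571). Of the 1988 exonic bases of *Tagln*, 67.9 percent are also annotated to *Pcsk7* or *Gm48529* on the opposite strand, and neither the library kit named in the labels nor the counting was described as keeping strand, so reads over these bases cannot be told apart. *Pcsk7* had a log2 fold change of 0.52 (limma adjusted p = 1.55e-05), opposite in sign to *Tagln*.

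*Cnn1* (chr9:22099216-22109630) encodes calponin 1, a late marker of differentiated smooth muscle that binds actin and restrains myosin. It ranged from 82.2 to 208 normalized counts in CTL tumors (median 176) and from 72.5 to 161 in knockdown tumors (median 112). All 6 knockdown tumors lay below the CTL median, but CTL replicate 5 was itself below 5 of them. The log2 fold change of -0.46 ± 0.26 did not pass the test (SE, limma adjusted p = 0.168), and without CTL replicate 5 it was -0.64 with a limma adjusted p of 0.0398.

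**Figure D2:**
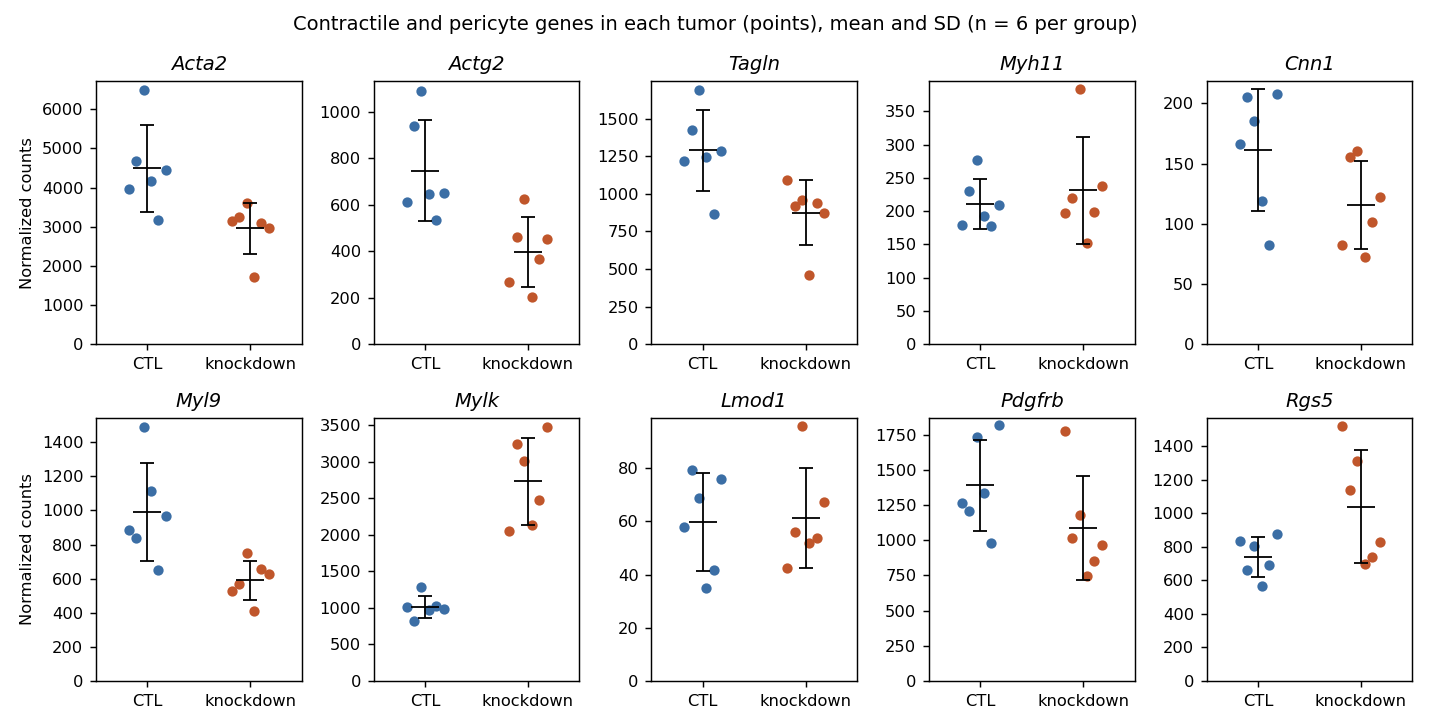
Normalized counts (y axis, from 0) of the 10 genes in each of the 12 tumors (points), with the mean and SD (bars, n = 6) of CTL and knockdown tumors. *Mylk* is the only panel in which the groups are separate, and the low knockdown points of *Acta2* (1708) and *Tagln* (461) are the same tumor, knockdown replicate 4.

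The genes of the myosin motor went in different directions. *Mylk* (ENSMUSG00000022836, chr16:34745210-35002420) encodes myosin light chain kinase, the enzyme that starts smooth muscle contraction and is also made by many epithelial and endothelial cells. Its lowest, median and highest levels were 812, 999 and 1277 normalized counts in CTL tumors and 2047, 2742 and 3466 in knockdown tumors. Every knockdown tumor lay above every CTL tumor, a separation that none of the other 9 genes had and that 21.5 percent of all genes tested had in either direction. The mean rose from 1012 ± 151 to 2728 ± 598 (SD, n = 6), a log2 fold change of 1.41 ± 0.14 (SE, limma adjusted p = 2.72e-06), and the exact permutation p of 0.00216 was the smallest that the 924 arrangements of 6 against 6 tumors allow. Annotation lists 8 *Mylk* transcripts, of which 2 are coding, a long one of 7824 bases and a short one of 1620 bases, whose span (chr16:34994807-35001363) lies at the 3′ end of the gene. Counts per gene do not separate them, so the data do not say which form rose. Exonic bases shared with genes on the other strand made up 6.85 percent of *Mylk*.

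*Myl9* (chr2:156775420-156781658) encodes the regulatory light chain that this kinase phosphorylates, and it changed in the other direction. It ranged from 648 to 1490 normalized counts in CTL tumors (median 928) and from 411 to 748 in knockdown tumors (median 600). Of the CTL tumors, 5 of 6 were above every knockdown tumor, and CTL replicate 5 was the exception. The mean fell from 992 ± 288 to 590 ± 116 (SD, n = 6), a log2 fold change of -0.72 ± 0.18 (SE, limma adjusted p = 0.00489, exact permutation p = 0.00649).

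*Myh11* (chr16:14194535-14291372) encodes smooth muscle myosin heavy chain, the marker most restricted to mature smooth muscle. It ranged from 178 to 277 normalized counts in CTL tumors (median 202) and from 152 to 384 in knockdown tumors (median 209). The groups overlapped nearly in full, with the highest and the lowest of the 12 tumors both in the knockdown group. Its log2 fold change was 0.09 ± 0.19 (SE, limma adjusted p = 0.745).

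The pericyte genes differed in sign, and neither passed the test. *Pdgfrb* (chr18:61045150-61085061) encodes the PDGF receptor of pericytes and fibroblasts. CTL tumors held 978 to 1815 normalized counts (median 1303) and knockdown tumors 747 to 1779 (median 990), with 5 of 6 knockdown tumors below the CTL median. The log2 fold change was -0.38 ± 0.19 (SE, limma adjusted p = 0.135), and without knockdown replicate 1, which held the highest knockdown value, it was -0.53 with a limma adjusted p of 0.0128. In the other 11 fits that left out 1 tumor it was not called, with -0.28 without knockdown replicate 4 (limma adjusted p = 0.266).

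*Rgs5* (chr1:169655501-169695813) encodes a regulator of G-protein signaling that is abundant in capillary pericytes. CTL tumors held 565 to 876 normalized counts (median 749) and knockdown tumors 697 to 1524 (median 985). In 3 knockdown tumors the level was above every CTL tumor, and the other 3 lay within the CTL range. The log2 fold change was 0.45 ± 0.19 (SE, limma adjusted p = 0.0690). Without knockdown replicate 4 it was 0.55 (limma adjusted p = 0.0263) and without knockdown replicate 5 it was 0.53 (0.0389), but without knockdown replicate 1 it was 0.32 (0.132). With skeletal muscle level as a covariate it was 0.27 (limma adjusted p = 0.464).

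Ratios between genes within a tumor, which do not depend on the scaling of the library, were compared to see whether the genes changed unequally. A set of 6 ratios was tested with exact two-sided permutation tests, adjusted over the 6. The log2 ratio of *Acta2* to *Myh11* was lower in knockdown tumors by a difference of -0.69 (95% interval -0.99 to -0.39), and that of *Acta2* to *Rgs5* by a difference of -1.05 (-1.52 to -0.59). The log2 ratio of *Rgs5* to *Pdgfrb* was higher by 0.82 (0.51 to 1.14). For each of these 3 ratios the groups did not overlap and the exact permutation p was 0.00216, or 0.00433 after adjustment. Of all single genes tested, 21.5 percent also had groups that did not overlap, and the share over other gene pairs was not computed. With chromosome medians removed, the difference was -0.33 (exact permutation p = 0.026) for *Acta2* to *Myh11* and -0.69 (0.0152) for *Acta2* to *Rgs5*, both smaller and in the same direction.

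The other 3 ratios did not pass. The log2 ratio of *Myh11* to *Rgs5* differed by -0.36 (95% interval -0.85 to 0.14, exact permutation p = 0.145). Against *Pecam1*, an endothelial adhesion molecule, the difference for *Rgs5* was -0.09 (-0.49 to 0.31, exact permutation p = 0.606). Against *Col1a1*, the main chain of fibrillar collagen, the difference for *Acta2* was 0.16 (-0.21 to 0.53, exact permutation p = 0.368). With chromosome medians removed, that difference was 0.55 (exact permutation p = 0.0152). All 3 intervals include 0 and none is narrow enough to show that the genes moved alike. Chosen after the values were seen, the log2 ratio of *Mylk* to its substrate *Myl9* was higher by 2.14 (1.75 to 2.52), and that of *Mylk* to *Myh11* by 1.32 (0.93 to 1.72), with no overlap of the groups in either. *Mylk* alone already had groups that did not overlap.

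**Figure D3:**
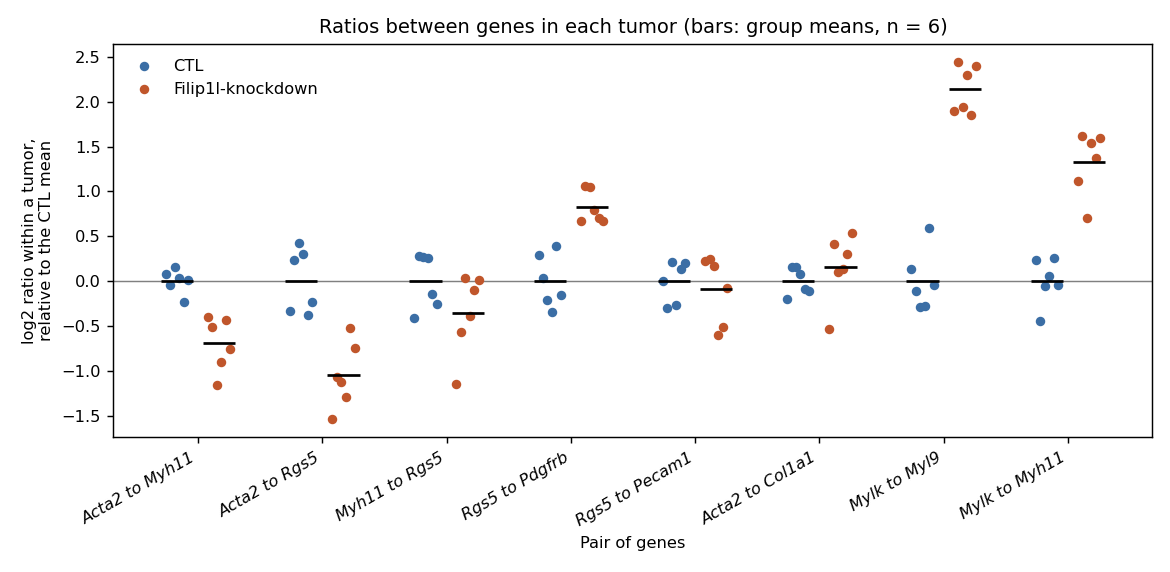
Log2 ratios (y axis, relative to the CTL mean of each ratio) of 8 gene pairs in each tumor (points), with group means (bars, n = 6). The groups are apart for *Acta2* to *Myh11*, *Acta2* to *Rgs5*, *Rgs5* to *Pdgfrb* and both *Mylk* ratios, and overlap for the other 3.

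Levels were compared between genes per kilobase of merged exons, as means of 6 CTL tumors. Merged exons cover every annotated transcript, so *Mylk* was divided by 11263 bases, against 7824 in its longest transcript. Of the *Tagln* bases, 67.9 percent are shared with genes on the opposite strand. The places of *Mylk* and *Tagln* in the order are therefore uncertain. *Acta2* was highest at 2045 normalized counts per kilobase, followed by *Myl9* at 853, *Tagln* at 648 and *Actg2* at 479. *Pdgfrb* (254) and *Rgs5* (163) came next, then *Mylk* (89.9), *Cnn1* (58.8), *Myh11* (27.8) and *Lmod1* (15.2). Each gene was above its lower neighbour in 6 of 6 CTL tumors, except that *Mylk* was above *Cnn1* in 5 of 6. *Acta2* and *Tagln*, which myofibroblasts share, were among the top 3, and *Cnn1*, *Myh11* and *Lmod1*, which mark mature smooth muscle, were the last 3. In knockdown tumors the mean of *Mylk* was 242 ± 53.1 per kilobase (SD, n = 6). It stood beside 229 ± 74.2 for *Rgs5*, 199 ± 67.3 for *Pdgfrb* and 255 ± 97.5 for *Actg2*. Each difference from the *Mylk* mean is smaller than these SDs, and this order was not followed tumor by tumor.

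Beyond the difference between groups, many pairs of the 10 genes varied together from tumor to tumor. With the group means removed, the Pearson correlation of log2 levels over 12 tumors was above 0.5 in 26 of the 45 pairs, with a median of 0.57, and negative in 0. By Spearman correlation 22 pairs were above 0.5, with a median of 0.50. These correlations share libraries and size factors and are descriptions, with no test and no background from other gene pairs. *Acta2* and *Tagln* had the highest, at 0.95, and among *Acta2*, *Actg2*, *Tagln*, *Cnn1* and *Myl9* the 10 pairs lay between 0.59 and 0.95. Further close pairs were *Actg2* with *Myh11* (0.91), *Cnn1* with *Lmod1* (0.82) and *Pdgfrb* with *Rgs5* (0.79). *Mylk* was at 0.02 to 0.65 with the other 9, and its lowest value was with *Pdgfrb*. Single tumors recurred at the ends of the range: CTL replicate 5, the shallowest library, was the lowest CTL tumor in 7 of the 10 genes, and knockdown replicate 4 was the lowest knockdown tumor in 8.

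Outside the set, the genes most like each of 4 markers were taken from 12878 genes whose mean reached 50 normalized counts. The highest of so many correlations over 12 tumors are large in part by selection, and none was tested. *Acta2* was most like *Lrrc15* (0.92), a membrane protein of TGF-β-activated cancer-associated fibroblasts, *Tspan11* (0.88) and *Aoc3* (0.87), an amine oxidase of smooth muscle. *Myh11* was most like *Podn* (0.85), *Copz2* (0.85) and *Itga11* (0.84), a collagen receptor chain of fibroblasts. *Pdgfrb* was most like *Spon1* (0.98), *Pdgfra* (0.96), the PDGF receptor of fibroblasts, and *Ednra* (0.96), an endothelin receptor. *Rgs5* was most like *Ifi209* (0.94), *Fcgr1* (0.94), a macrophage Fc receptor, and *Igf1* (0.93). *Mylk*, looked up after its values were seen, was most like *Sprr2a3* (0.96), a small proline-rich protein of epithelia, *Gstt1* (0.92) and *Tnfrsf1a* (0.92). The mean log2 level of 17 fibroblast and matrix genes correlated with *Pdgfrb* at 0.90 and with *Rgs5* at 0.86. That of 13 endothelial genes correlated with *Pdgfrb* at 0.59, with *Rgs5* at 0.49 and with *Mylk* at -0.65.

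**Figure D4:**
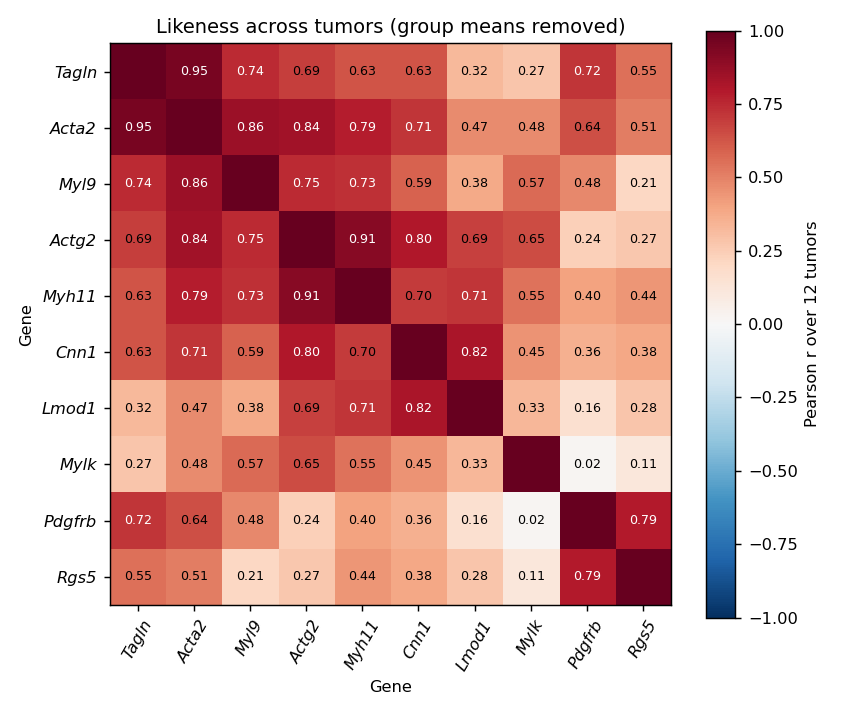
Pearson correlation (color and printed value) between the 10 genes over 12 tumors after removal of group means, with genes on both axes. *Tagln*, *Acta2*, *Myl9*, *Actg2*, *Myh11* and *Cnn1* form the dark block, with 0.59 as its lowest value, and the palest cell is the 0.02 between *Mylk* and *Pdgfrb*.

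Of 26 other genes of the contractile apparatus, 7 rose, 7 fell and 12 did not pass, with a median log2 fold change of -0.03. Over all genes 21.1 percent were called higher and 20.7 percent lower, which is also the background for the lists that follow, and 7 of 26 lies near both shares. Among those that fell were *Cald1*, which encodes the actin-bound caldesmon, at -0.85 ± 0.14 (SE, limma adjusted p = 0.000235), and the broadly expressed calponins *Cnn3* at -0.75 ± 0.10 (3.73e-05) and *Cnn2* at -0.59 ± 0.07 (1.42e-05). Among those that rose were *Nexn*, an actin-binding protein of striated and smooth muscle, at 0.86 ± 0.14 (limma adjusted p = 0.000264), *Csrp1*, a LIM protein of smooth muscle, at 0.36 ± 0.06 (0.000380), and *Synpo2* at 1.62 ± 0.36 (0.00254). *Nexn* and *Synpo2* are also made by skeletal muscle, as is *Des*, the muscle intermediate filament (named after its values were seen), which rose by a log2 fold change of 2.04 (limma adjusted p = 0.00358).

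Skeletal muscle RNA moved with the groups. Of 22 skeletal muscle genes, 19 rose, and their summed normalized counts ranged from 3572 to 17526 in CTL tumors and from 7989 to 129572 in knockdown tumors, with knockdown replicates 3 (129572) and 4 (62387) highest. With the level of that list as a covariate, the log2 fold change of *Acta2* was -0.58 (limma adjusted p = 0.104). That of *Actg2* was -0.84 (0.0856) and that of *Tagln* was -0.52 (0.169). These calls were lost, while *Mylk* (1.58) and *Myl9* (-0.80) remained called. Without the covariate *Acta2* was at -0.61, *Actg2* at -0.96 and *Tagln* at -0.58. Because the muscle level moved with the groups, this fit cannot tell muscle level and knockdown apart. Without knockdown replicates 3 and 4, the log2 fold change of *Tagln* was -0.41 (limma adjusted p = 0.0503). With the covariate 3 genes of the contractile apparatus rose and 4 fell. Over all 15687 genes that fit called 2555 higher and 2463 lower, against 3314 and 3252 without the covariate.

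Of 20 regulators of the contractile program, 10 fell and 3 rose, with a median log2 fold change of -0.28, against 20.7 percent lower and 21.1 percent higher over all genes. *Tgfb1*, the TGF-β1 ligand, fell from 5105 ± 391 to 3684 ± 316 normalized counts (SD, n = 6), a log2 fold change of -0.47 ± 0.07 (SE, limma adjusted p = 6.62e-05). Its receptor *Tgfbr2* fell by 0.33 (limma adjusted p = 0.000223) and the signal transducer *Smad3* by 0.44 (0.000301) on the log2 scale. *Klf4*, a factor that represses smooth muscle genes, rose from 2031 ± 289 to 2822 ± 261 normalized counts (log2 fold change 0.48, limma adjusted p = 0.000827), and *Klf5*, a factor of epithelium and of dedifferentiated smooth muscle, had a log2 fold change of 0.82 (9.32e-06) and lies on chromosome 14, where the median log2 difference was 0.39. *Agtr1a*, the angiotensin II receptor, rose at a low level, from 7.90 ± 3.02 to 18.2 ± 6.32 normalized counts (limma adjusted p = 0.0184). *Srf* itself had a log2 fold change of 0.19 ± 0.07 that did not pass (SE, limma adjusted p = 0.0511).

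Most other pericyte genes and PDGF ligands did not pass the test, with 1 of 19 higher, 1 lower and a median log2 fold change of 0.14. *Abcc9*, a potassium channel subunit of pericytes, was the higher one, at 0.43 ± 0.16 (SE, limma adjusted p = 0.0479). That call stood near its threshold and was lost with either other scaling of the tumors. *Pdgfc*, a ligand of PDGFRα, fell from 3090 ± 164 to 1962 ± 229 normalized counts (SD, n = 6), a log2 fold change of -0.66 ± 0.07 (SE, limma adjusted p = 7.44e-06).

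Of 17 fibroblast and myofibroblast matrix genes 10 fell and 0 rose, with a median log2 fold change of -0.76, beside -0.61 for *Acta2*. *Lrrc15*, the matrix glycoprotein *Tnc* and *Ccn2*, a TGF-β-induced matrix protein, had log2 fold changes of -1.40, -1.19 and -0.69 (limma adjusted p = 8.81e-05, 0.000102 and 3.56e-05). Of 13 endothelial genes 9 rose and 0 fell, with a median log2 fold change of 0.45, beside 0.45 for *Rgs5*, which did not pass. With skeletal muscle level as a covariate, 3 of the 13 were called higher. That fit called 2555 of all 15687 genes higher, against 3314 without the covariate. *Emcn*, *Pecam1* and *Cdh5*, genes of the endothelial surface and junctions, had log2 fold changes of 0.70, 0.54 and 0.45 (limma adjusted p = 0.000237, 0.000564 and 0.00413). The part of these cell types in the changes of the 10 genes was not tested.

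**Figure D5:**
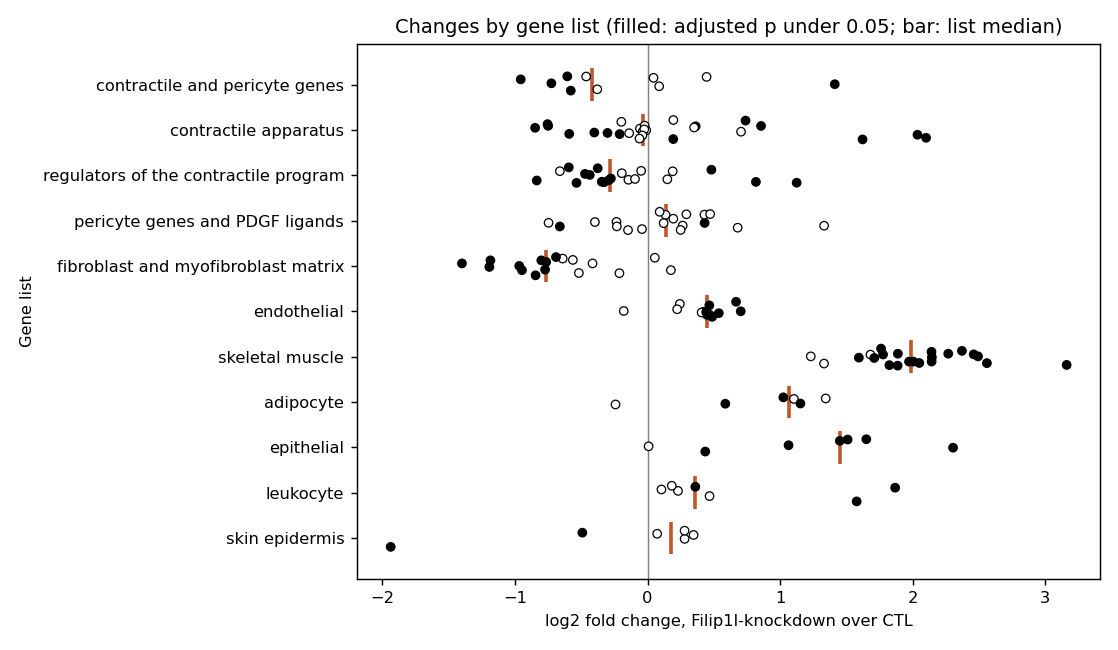
Log2 fold change (x axis, *Filip1l*-knockdown over CTL) of each gene of 11 lists (rows), with filled points for a limma adjusted p under 0.05 and a bar at the list median. The 10 contractile and pericyte genes (first row) spread from -0.96 to 1.41, the fibroblast and matrix genes lie mostly on the left (median -0.76), and the skeletal muscle genes on the right (median 1.99).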

How the data were processed

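RNA was extracted from 12 frozen tumors, and libraries were made with the NEBNext Ultra II RNA kit. According to the submitters' processing notes, the authors used bcl2fastq 2.20, Trimmomatic 0.36, STAR 2.5.2b, featureCounts of Subread 1.5.2 and DESeq2, with build mm10. The deposited values are a normalized signal, read counts per gene divided by a DESeq2 size factor. They are comparable between tumors for a gene and are not corrected for length. All values were whole multiples of 1 read within 0.01 read, which gave the depths in the text; in 3 tumors that step lies within 1% of 1. Precision from depth covers counting error only.

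Gene symbols and positions came from GENCODE vM21 on GRCm38, the same build as mm10, which held 15661 of 15687 identifiers (99.83%). Of all runs of 100 bases in transcripts of the 10 genes, 0 were found in a transcript of another gene. Values were moved to the log2 scale after adding a pseudocount of 1, so changes of low genes are understated. A filter at a mean of 5 was set and removed 0 genes.

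Groups were taken from the labels and compared with limma 3.58.1 (R 4.3.3, variance trend, Benjamini-Hochberg adjustment over all genes). Permutation tests were exact and two-sided, over 924 arrangements. Intervals of ratios (95%) used the pooled spread. Only the limma comparison was tried on simulated data, with a fixed spread and fewer changed genes than were called here. Motifs were counted in RefSeq promoters. Figures used matplotlib 3.10.9 in Python 3.11.15.

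The 10 genes, the other lists and the tests were chosen with earlier results of these data known. Named are the 10 genes and *Filip1l*, up to 3 genes per list and direction with the lowest adjusted p, and the 3 genes most like each of *Acta2*, *Myh11*, *Pdgfrb* and *Rgs5*. *Srf*, *Col1a1* and *Pdgfra* are list genes that a sentence needed, and *Pcsk7* and *Gm48529* overlap *Tagln*. *Myocd* and *Pln* were not analysed here, nor were 5 other list genes.

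Tried instead were a pseudocount of 0.5 or 8, a filter mean of 20 or none, scaling to the 75th percentile or the same total, no variance trend, a replicate block, chromosome medians removed, skeletal muscle level as a covariate, and leaving out each tumor in turn. An edgeR 4.0.16 quasi-likelihood test on the recovered reads, a fit without knockdown replicates 3 and 4 and both *Mylk* ratios were added after seeing the data.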

Additional observations from a re-analysis of the deposited data

Results flagged for a closer look

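Single tumors stood apart from the rest of their group in 3 of 38 tests of the gap to the nearest tumor relative to the whole range, where chance gives about 1 in 20. *Acta2* was at 1708 normalized counts in knockdown replicate 4, with a gap of 0.66 of the range of the 6 knockdown tumors. *Tagln* was at 461.2 in the same tumor, with a gap of 0.646. *Myh11* was at 383.9 normalized counts in knockdown replicate 3, with a gap of 0.627, just past the critical value. These were also the tumors with the most skeletal muscle RNA, 62387 summed normalized counts in knockdown replicate 4 and 129572 in knockdown replicate 3. With group means removed, the mean log2 level of the skeletal muscle list correlated over 12 tumors with *Acta2* at -0.05, with *Tagln* at -0.09 and with *Myh11* at 0.20. The part of that RNA in these values was not tested.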

How the results depend on the processing

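Over 24 alternatives for 10 genes, 221 of 240 values kept their direction and side of the threshold. *Mylk* (1.34 to 1.58) and *Myl9* (-0.84 to -0.60) were called under all of them. With skeletal muscle level as a covariate, 1 of the 10 genes was called lower, beside 2463 of all 15687 genes. In that fit *Myh11* was at -0.036 and *Lmod1* at -0.13. Without knockdown replicates 3 and 4, *Lmod1* was at -0.080. Leaving out 1 tumor gave 1 to 2 genes higher, 3 to 5 lower and 0 to 1 lower by over 2-fold, *Myh11* from -0.070 to 0.20, *Lmod1* from -0.095 to 0.14, the ratio of *Rgs5* to *Pecam1* from -0.16 to 0.0094 and that of *Acta2* to *Col1a1* from 0.084 to 0.30. With chromosome medians removed the latter was 0.55 (exact permutation p = 0.0152). edgeR on recovered reads called 6626 genes. The causes were not tested. The fewest reads of any of the 10 genes in a tumor were 28.

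Tumors that share a replicate number had correlations of -0.27 to 0.10 after removal of group means, so the numbers were taken as names. With a replicate block, 5905 genes were called and 2 of the 10 genes were higher, with *Rgs5* added (limma adjusted p = 0.0242).

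Among the other lists, leaving out 1 tumor gave 4 to 8 contractile apparatus genes lower, 0 to 3 pericyte genes higher, 1 to 2 pericyte genes lower, 0 to 1 adipocyte gene lower and 1 to 2 epidermis genes lower. With the skeletal muscle covariate, contractile apparatus genes were 3 higher and 4 lower, pericyte genes 0 higher, endothelial genes 3 higher and skeletal muscle genes 0 higher and 2 lower. That fit called 2555 of all 15687 genes higher and 2463 lower. With the replicate block, contractile apparatus genes were 4 lower, pericyte genes 0 higher and 1 adipocyte gene was lower. With the 75th percentile, the same total or no variance trend 0 pericyte genes were higher. Without knockdown replicates 3 and 4, 0 pericyte genes were higher, 10 skeletal muscle genes were higher and 1 epidermis gene was lower.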

Other observations

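Other cell types of the tumors changed as follows. Of 7 epithelial genes 6 rose and 0 fell, with a median log2 fold change of 1.45, and their summed normalized counts were 135655 to 176354 in CTL tumors and 190752 to 355170 in knockdown tumors, with no overlap. *Cldn7* (2.31), *Krt19* (1.65) and *Epcam* (1.51), genes of simple epithelium and of carcinoma cells, led them by adjusted p (limma adjusted p = 1.00e-06, 1.15e-05 and 5.79e-06). Of 6 adipocyte genes 3 rose, *Cidec* (1.15), *Fabp4* (1.02) and *Pparg* (0.59). Of 7 leukocyte genes 3 rose, *S100a9* (1.87) and *S100a8* (1.58) of neutrophils and *Cd68* (0.36) of macrophages. Of 6 skin epidermis genes 2 fell, *Lor* (-1.94) and *Krt10* (-0.49). Among the skeletal muscle genes, *Actn2* (2.37), *Lmod2* (2.14) and *Lmod3* (2.49) had the lowest adjusted p, and *Lmod2* and *Lmod3* are the striated muscle relatives of *Lmod1*, which itself stood at 0.05.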
